A study of Mus musculus with 23 samples.

Results

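Imprinted genes, which are transcribed mainly from the chromosome inherited from 1 parent, were followed in early post-implantation mouse embryos (stage E6.25) in which Tet1 carries a gene trap. The members are a list of 51 imprinted genes, found in the count table by their symbols. Of these, 50 had a row among the 23723 distinct gene symbols of the deposited count table. In the list, 27 are classed as expressed mainly from the paternal chromosome and 22 mainly from the maternal chromosome. Gnas is used from both in a tissue-dependent way. Some members are imprinted only in certain tissues, and the parental class was not measured in these samples. Zfp264 was not analysed here.

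RNA was measured in 23 libraries from 2 tissues of the embryo, the epiblast (E), source of the fetus, and the extra-embryonic compartment (ExE), which contributes to the placenta. In each tissue the embryos were wild type (wt), heterozygous for the trap (Tet1gt/wt, "het" below) or homozygous (Tet1gt/gt, "hom" below). There were 4 pools in each group and 3 in the ExE hom group, and each pool joined lysates of at least 6 embryos out of 2 to 3 litters, assigned by a genotype read after dissection. Neither the labels nor the design text state the mouse strain or where in Tet1 the trap lies.

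At many imprinted loci, though not at all, DNA methylation set in the egg or the sperm marks the 2 parental chromosomes differently. That mark is kept when most other methylation is lost after fertilisation. Genes of 1 domain often share such a mark, and several domains hold a long non-coding RNA that silences its neighbours on the same chromosome. Tet1 encodes a dioxygenase that oxidises 5-methylcytosine, and in the placenta many imprinted genes act on growth. The counts do not separate the 2 parental alleles, so every value here is the sum over both.

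Library totals ranged from 4912215 to 9494814 counts, and a count of 0 in a library allows up to 0.312 to 0.683 CPM (counts divided by the TMM-scaled library total, on the customary scale), a limit that covers counting error only. Tet1 was 127 to 197 CPM in the E wt pools and 55.2 to 113 CPM in E hom, and 77.02 to 109.9 CPM in ExE wt and 21.5 to 37.7 CPM in ExE hom, with no overlap in either tissue. Because the trap site is not stated, parts of the Tet1 transcript before and after it were counted together. Summed epiblast markers were 2330 to 4070 CPM in E and 756 to 2510 CPM in ExE, and summed extra-embryonic ectoderm markers were 1490 to 2230 CPM in ExE and 207 to 509 CPM in E. Each sum was thus also well above the counting floor in the other tissue. Genes active in both tissues and cells of the other tissue both add to such a sum, and their parts were not tested. Pools that stood apart in single markers or sums are named beside the genes concerned. Nothing states that pools of 1 group came from separate litters, so p-values measure the spread between these pools only.

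Of the 50 members, 39 matched a promoter sequence (61 promoters, each running from 250 bases before to 50 bases after a start site, RefSeq, GRCm38.p6). The 5 promoters printed here belong to genes on which the results turn: Nnat and Magel2, which were lower in ExE, Phlda2, and Gab1 and Slc38a4, which were higher in ExE. Capitals mark each CG dinucleotide, the site of DNA methylation, and each sequence runs 5′ to 3′ on the strand of its gene.
Nnat promoter, chr2:157559828-157560127, plus strand: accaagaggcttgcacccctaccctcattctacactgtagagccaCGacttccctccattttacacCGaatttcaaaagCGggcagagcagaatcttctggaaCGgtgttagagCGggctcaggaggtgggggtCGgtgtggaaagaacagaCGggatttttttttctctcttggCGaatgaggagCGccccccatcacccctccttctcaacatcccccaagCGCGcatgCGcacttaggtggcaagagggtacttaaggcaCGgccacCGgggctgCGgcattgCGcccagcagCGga
Magel2 promoter, chr7:62376729-62377028, plus strand: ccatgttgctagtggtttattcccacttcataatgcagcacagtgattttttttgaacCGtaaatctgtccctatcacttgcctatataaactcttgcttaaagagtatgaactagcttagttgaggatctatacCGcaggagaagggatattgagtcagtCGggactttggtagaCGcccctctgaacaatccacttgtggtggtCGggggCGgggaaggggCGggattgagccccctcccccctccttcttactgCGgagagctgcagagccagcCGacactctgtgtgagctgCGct
Phlda2 promoter, chr7:143502475-143502774, minus strand: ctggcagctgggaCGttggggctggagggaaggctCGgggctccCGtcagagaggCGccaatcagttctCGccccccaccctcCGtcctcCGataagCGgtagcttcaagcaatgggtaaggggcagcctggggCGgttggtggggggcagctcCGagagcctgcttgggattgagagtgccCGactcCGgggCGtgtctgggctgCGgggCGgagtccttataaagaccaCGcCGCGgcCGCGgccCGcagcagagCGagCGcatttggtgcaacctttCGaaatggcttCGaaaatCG
Gab1 promoter, chr8:80880430-80880729, minus strand: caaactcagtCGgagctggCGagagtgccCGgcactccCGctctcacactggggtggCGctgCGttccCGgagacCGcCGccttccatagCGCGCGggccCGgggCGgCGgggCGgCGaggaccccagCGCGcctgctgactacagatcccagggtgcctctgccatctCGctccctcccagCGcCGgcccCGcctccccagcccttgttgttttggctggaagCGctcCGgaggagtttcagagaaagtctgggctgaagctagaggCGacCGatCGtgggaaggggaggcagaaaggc
Slc38a4 promoter, chr15:97055907-97056206, minus strand: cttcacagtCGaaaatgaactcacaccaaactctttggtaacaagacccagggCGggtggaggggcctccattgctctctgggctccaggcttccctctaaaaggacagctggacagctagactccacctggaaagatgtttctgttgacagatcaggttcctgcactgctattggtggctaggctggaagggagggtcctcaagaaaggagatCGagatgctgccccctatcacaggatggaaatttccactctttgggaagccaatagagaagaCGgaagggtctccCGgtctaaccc

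These promoters differ in the density of sites that methylation could occupy. There are 28 CG dinucleotides in the Gab1 window, 26 in Phlda2, 17 in Nnat, 10 in Magel2 and 5 in Slc38a4, against a median of 15 over the 61 member promoters and of 7 over all 32851 promoters of the same length. The hexamer TGCCGC, the letters recognised in methylated form by the imprint-protecting factor ZFP57, was searched on both strands. It occurred in 14 of the 61 member promoters (23%) and in 11.6% of all promoters. The hexamer itself contains a CG, and promoters matched for CG number were not compared. Some windows of the same gene overlap, as for Mest, and were counted separately. Of the 5 printed here, Nnat holds 1 copy and the other 4 hold none.

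Together the 50 measured genes gave 2604 ± 200.5 CPM (SD, n = 4) in E wt pools and 5065 ± 746 CPM (n = 4) in ExE wt pools. H19, a maternally expressed non-coding RNA, supplied 26.3% of that sum in ExE wt and 4.17% in E wt. Gnas, which encodes the stimulatory G protein alpha subunit, supplied 18.7% in E wt and 4.89% in ExE wt. Per kilobase of annotated exon, the 5 highest members in E wt were Nap1l4 (97.2 CPM per kb), H19 (46.8), Cd81 (45.1), Gnas (43.1) and Mest (32.6). In ExE wt they were H19 (550.0 CPM per kb), Phlda2 (166), Nap1l4 (91.0), Cdkn1c (62.7) and Gab1 (60.9). Nap1l4, a nucleosome assembly protein gene at the edge of the Kcnq1 domain, was thus high in both tissues. Kcnq1 (12 counts over all 23 pools), Snrpn (37) and Rasgrf1 (37) were near the counting floor and entered no test.

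**Figure D1:**
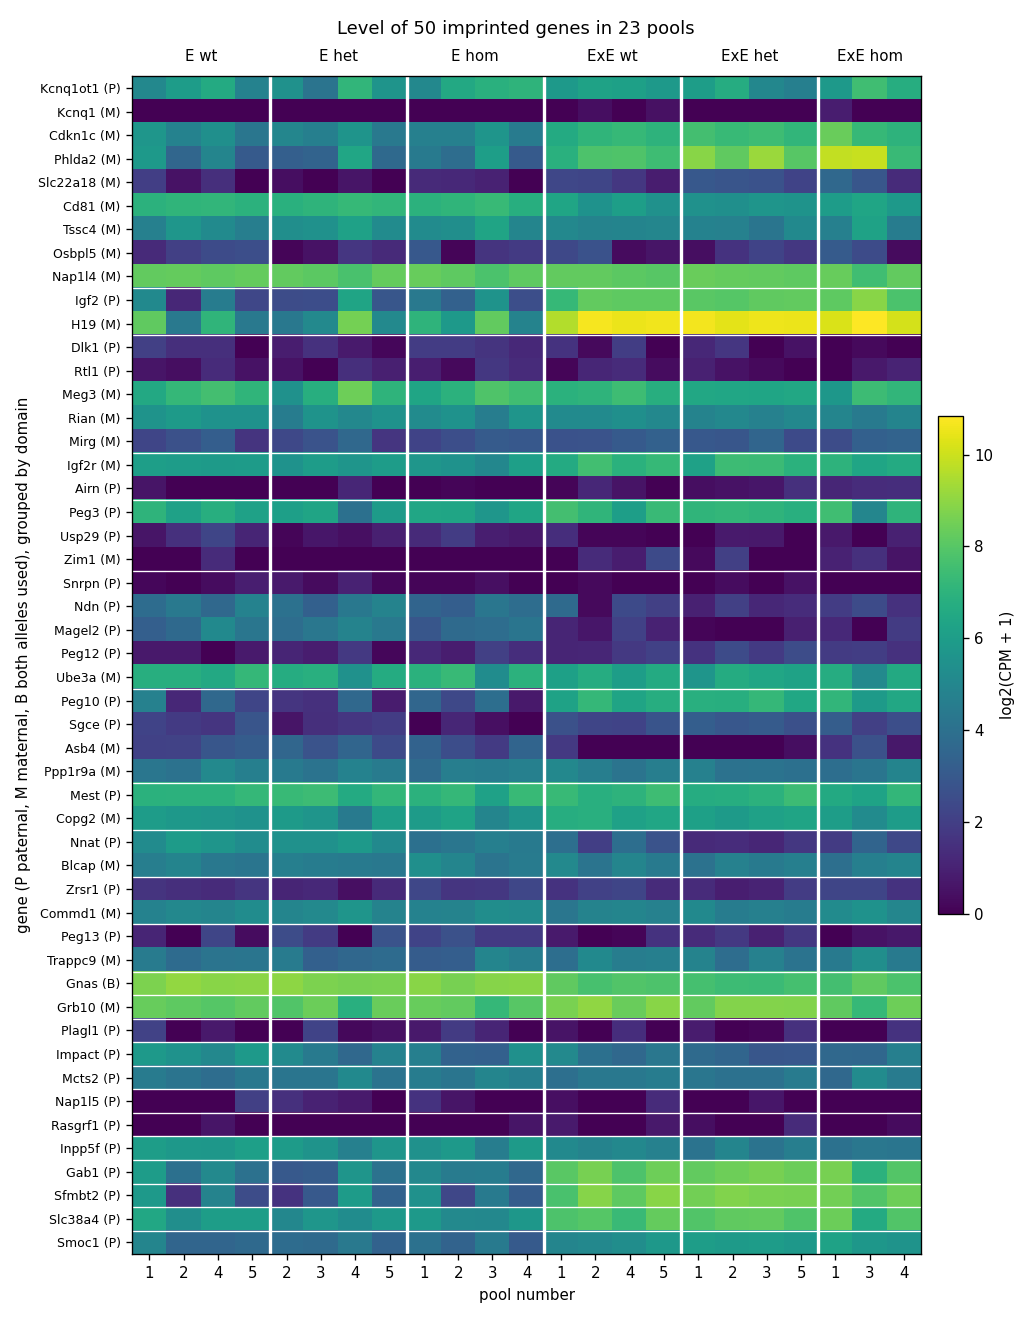
Level of the 50 measured imprinted genes, as log2(CPM + 1) by colour, in the 23 pools, with pools grouped by tissue and genotype and genes grouped by domain (white lines). H19 is the brightest row in ExE, Gnas, Grb10 and Nap1l4 are bright in both tissues, and Kcnq1, Snrpn and Rasgrf1 are dark throughout.

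The first comparison asks which imprinted genes differ between the 2 tissues of wt embryos. In ExE, 10 of 47 tested members were higher: Igf2, Sfmbt2, H19, Gab1, Peg10, Phlda2, Cdkn1c, Slc38a4, Smoc1 and Igf2r. Another 5 were lower in ExE: Magel2, Nnat, Cd81, Gnas and Inpp5f. Calls are at an adjusted p under 0.05 (edgeR quasi-likelihood test, Benjamini-Hochberg over all genes tested). Of all 13595 genes tested, 9.28% were called higher and 7.98% lower, or 17.3% in either direction, against 31.9% of the tested members. The median log2 fold change was 0.164 over the members and -0.0131 over all genes. By class, 6 of 25 paternal genes were higher and 3 lower, and 4 of 21 maternal genes were higher and 1 lower. In a bulk pool, more cells of a type and more RNA per cell cannot be told apart.

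All 15 of these calls were also made in het and in hom embryos, in the same direction. In het, 12 members were higher and 8 lower, where 12% and 14.9% of all genes were called (27% in either direction). In hom, 11 were higher and 5 lower, where 9.12% and 7.66% were called (16.8% in either). The genes added were Peg3, Slc22a18, Ndn, Asb4 and Impact in het and Sgce in hom. Of these, Peg3 was lost in het with the pool number as a block (adjusted p = 0.0582, edgeR) and without any 1 of 7 of the 8 het pools, and Impact without any 1 of 4 of them. In hom, a fit of only the E and ExE hom pools did not call Igf2r, Sgce, Inpp5f, Magel2 or Nnat (adjusted p = 0.0534 to adjusted p = 0.0980, edgeR), and Magel2, Nnat and Igf2r were also lost without ExE hom pool 1. The Nnat call in hom was lost without ExE hom pool 4 (adjusted p = 0.0508, edgeR). The E and ExE pools of different genotypes do not share samples, so these are separate measurements of the same contrast, though all come from 1 fit. With the pool number as a block, which the labels tie to shared litters, the number lower in wt ExE was 9 instead of 5 (added were Asb4, Impact, Ndn and Ube3a), and the number higher was 12 (added were Copg2 and Grb10). With the block the share of all genes called also rose, from 17.3% to 25.8%.

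**Figure D2:**
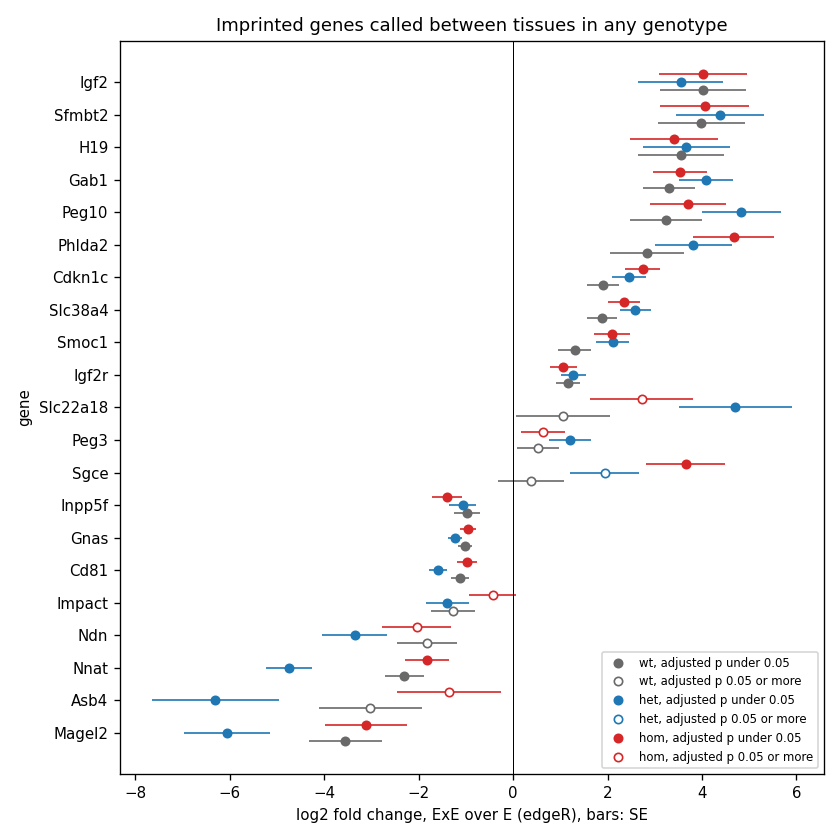
Log2 fold change of ExE over E (edgeR, bars are SE) in wt, het and hom embryos for the 21 imprinted genes called in at least 1 genotype; filled points have an adjusted p under 0.05. The 10 upper genes and Inpp5f, Gnas, Cd81, Nnat and Magel2 are filled in every genotype.

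The Igf2-H19 domain on chromosome 7 pairs a fetal growth factor from the paternal chromosome (Igf2, chr7:142650766-142666816, GRCm38) with a non-coding RNA from the maternal one (H19, chr7:142575529-142578143), reciprocal in allele but driven by shared enhancers. Igf2 was 34.6, 1.32, 22.8 and 3.99 CPM in E wt pools 1, 2, 4 and 5, and 154, 303, 284 and 280 CPM in the ExE wt pools of the same numbers. H19 was 288, 19.7, 133 and 19.7 CPM in those E pools and 766, 1637, 1466 and 1546 CPM in those ExE pools. For both RNAs every ExE pool exceeded every E pool, E pools 1 and 4 were the high ones in E, and ExE pool 1 was the low one in ExE. The log2 fold changes were 4.03 ± 0.91 (SE) for Igf2 (adjusted p = 0.00418, edgeR) and 3.56 ± 0.91 for H19 (adjusted p = 0.00958, edgeR). In hom the corresponding values were 4.02 ± 0.94 for Igf2 and 3.40 ± 0.93 for H19, and in het 3.55 ± 0.89 and 3.67 ± 0.92. Of the Igf2 exon bases, 64.5% lie under other annotated genes, which includes a read-through model on the same strand, so its counts may be shared.

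The Kcnq1 domain lies next to it, and there the paternally expressed antisense RNA Kcnq1ot1 silences a row of maternally expressed genes. Of its 8 tested genes, Phlda2 and Cdkn1c were higher in ExE, Cd81 was lower, and Kcnq1ot1, Slc22a18, Tssc4, Osbpl5 and Nap1l4 did not pass the test in wt. Phlda2 (chr7:143501545-143503150), which restrains placental growth, was 56.8, 10.9, 29.4 and 7.39 CPM in E wt pools 1, 2, 4 and 5 and 118, 224, 227 and 178 CPM in the ExE pools. Its groups did not overlap, and the log2 fold change was 2.84 ± 0.78 (adjusted p = 0.0147, edgeR). The Phlda2 call was lost without E wt pool 2 and without E wt pool 5 (adjusted p = 0.0524 and adjusted p = 0.0515, edgeR). Cdkn1c (chr7:143458339-143461050), a cyclin-dependent kinase inhibitor, was 50.7, 27.0, 40.7 and 17.9 CPM in E wt and 98.2, 134, 151 and 129 CPM in ExE wt. That is a log2 fold change of 1.91 ± 0.34 (adjusted p = 0.000746, edgeR). Cd81 (chr7:143052739-143067934), a tetraspanin gene imprinted in placenta, went the other way, with 122 to 139.5 CPM in the 4 E wt pools and 44.3 to 82.6 CPM in ExE wt (log2 fold change -1.12 ± 0.19, adjusted p = 0.000415, edgeR).

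The long RNA of the domain did not pass the test. Kcnq1ot1 was 27.1 to 97.6 CPM in E wt and 54.7 to 73.8 CPM in ExE wt, overlapping groups with a log2 fold change of 0.22 ± 0.55. Its annotated span of 93092 bases lies inside Kcnq1 on the other strand. Because the strand setting of the counting is not given, unspliced Kcnq1 RNA cannot be told from it, although Kcnq1 itself had counts in only 3 of 23 pools. Slc22a18, a transporter gene between Cdkn1c and Phlda2, was called in het only, with 0 to 0.527 CPM in E het and 3.51 to 7.01 CPM in ExE het.

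The 4 genes listed as imprinted in extra-embryonic tissue are all paternal: Sfmbt2, Gab1, Slc38a4 and Smoc1. All 4 were higher in ExE in each genotype, with a median log2 fold change of 2.59 in wt, 3.34 in het and 2.94 in hom. The 5 genes listed as imprinted in placenta, all maternal (Cd81, Tssc4, Osbpl5, Nap1l4 and Ppp1r9a), gave another picture. None of the 5 was higher and 1, Cd81, was lower in each genotype (median log2 fold change -0.184 in wt, -0.216 in het and -0.0833 in hom). Sfmbt2 (chr2:10370510-10595253), a Polycomb group gene needed for placental growth, was 56.8, 1.87, 27.8 and 4.73 CPM in E wt pools 1, 2, 4 and 5 and 213, 464.5, 286 and 484 CPM in ExE wt. Gab1 (chr8:80764438-80880519), an adaptor of receptor tyrosine kinases, was 61.9, 14.9, 33.1 and 15.7 CPM in E wt and 269.7, 396, 221 and 352 CPM in ExE wt. The log2 fold changes were 3.99 ± 0.91 for Sfmbt2 (adjusted p = 0.00446, edgeR) and 3.30 ± 0.55 for Gab1 (adjusted p = 0.000338, edgeR). Both genes were highest in the same E pools, 1 and 4, that were highest in H19.

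The other 2 had smaller ranges. Slc38a4 (chr15:96994820-97055956), an amino acid transporter gene, was 39.3 to 90.0 CPM in E wt and 162 to 310.1 CPM in ExE wt (log2 fold change 1.88 ± 0.32, adjusted p = 0.000389, edgeR). Smoc1 (chr12:81026808-81186414), a secreted calcium-binding protein gene, was 29.6, 10.54, 10.6 and 11.98 CPM in E wt pools 1, 2, 4 and 5 and 29.9, 32.8, 38.5 and 54.1 CPM in ExE wt. The Smoc1 groups were separated only narrowly, since E pool 1 reached the level of ExE pool 1 (log2 fold change 1.31 ± 0.35, adjusted p = 0.0121, edgeR).

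In the Peg10-Sgce domain on chromosome 6, Peg10, a retrotransposon-derived gene that the placenta needs, was higher in ExE, and its divergent neighbour Sgce was not called in wt. Peg10 (chr6:4747306-4760517) was 26.0, 1.32, 11.8 and 3.84 CPM in E wt pools 1, 2, 4 and 5 and 75.6, 146, 80.5 and 105 CPM in ExE wt, with no overlap (log2 fold change 3.24 ± 0.77, adjusted p = 0.00555, edgeR). Sgce, which encodes epsilon-sarcoglycan from a start site close to that of Peg10, was 2.17 to 6.21 CPM in E wt and 3.56 to 5.95 CPM in ExE wt (log2 fold change 0.38 ± 0.70). Asb4, a maternally expressed ubiquitin ligase adaptor gene further along, was 3.29 to 7.99 CPM in E wt and at 0 counts in 3 of 4 ExE wt pools (adjusted p = 0.0588, edgeR). Ppp1r9a, the fourth gene, was 15.9 to 33.2 CPM in E wt and 16.9 to 32.3 CPM in ExE wt.

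Igf2r (chr17:12682406-12769664), the maternally expressed receptor that removes IGF2, was 59.2 to 65.8 CPM in E wt and 98.8 to 185 CPM in ExE wt (log2 fold change 1.16 ± 0.26, adjusted p = 0.00379, edgeR). The growth factor and its clearing receptor were thus both higher in ExE. Airn, the antisense RNA that silences Igf2r on the paternal chromosome, had at most 17 counts in any pool and was at 0 in 3 of 4 E wt pools. Grb10, an adaptor that restrains insulin and IGF signalling, was 254 to 321 CPM in E wt and 328 to 528 CPM in ExE wt. The Grb10 groups did not overlap, but the gene did not pass the test (log2 fold change 0.59 ± 0.29, adjusted p = 0.171, edgeR).

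Among the genes lower in ExE, Magel2 and Nnat had the largest changes. Magel2 (chr7:62377010-62381640), a MAGE family gene of the Prader-Willi region, was 8.67, 11.9, 34.2 and 18.3 CPM in E wt pools 1, 2, 4 and 5 and 1.20, 0.553, 3.32 and 1.08 CPM in ExE wt. That is a log2 fold change of -3.55 ± 0.77 (adjusted p = 0.00311, edgeR). Its neighbour and relative Ndn (necdin) was 11.7 to 26.8 CPM in E wt and 12.5, 0.221, 4.39 and 3.11 CPM in ExE wt, where ExE pool 1 overlapped E (log2 fold change -1.82 ± 0.64, adjusted p = 0.0509, edgeR). Ndn was called lower in het, at -3.35 ± 0.69 (adjusted p = 0.000935, edgeR). Of the other genes of that region, Ube3a, a ubiquitin ligase gene whose imprinting is neural, was 93.2 to 149.8 CPM in E wt and 64.3 to 102 CPM in ExE wt. Peg12, a paternal gene of the same region, was at most 3.24 CPM in all 8 wt pools.

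Nnat (chr2:157560078-157562522) encodes neuronatin, a membrane proteolipid, and lies inside an intron of Blcap on the opposite strand. In E wt pools 1, 2, 4 and 5 it was 36.4, 60.6, 48.9 and 38.0 CPM, and in ExE wt 14.4, 2.99, 14.1 and 5.81 CPM. The groups did not overlap, and ExE pools 1 and 4 were the higher ones (log2 fold change -2.30 ± 0.42, adjusted p = 0.000809, edgeR). Blcap, the maternal partner, was 17.7 to 29.0 CPM in E wt and 16.9 to 33.5 CPM in ExE wt (log2 fold change 0.16 ± 0.29). Unspliced Blcap RNA would be counted with Nnat where strand is ignored, and Blcap was not called.

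Gnas and Inpp5f were the remaining genes lower in ExE. Gnas (chr2:174284320-174346744) was 413 to 539.5 CPM in E wt and 204.5 to 291 CPM in ExE wt (log2 fold change -1.01 ± 0.15, adjusted p = 0.000127, edgeR). Inpp5f, a phosphoinositide phosphatase gene with a paternally expressed brain isoform, was 52.0 to 68.2 CPM in E wt and 26.5 to 34.5 CPM in ExE wt (log2 fold change -0.97 ± 0.28, adjusted p = 0.0190, edgeR). The Inpp5f call was lost without E wt pool 5, without ExE wt pool 2 and without ExE wt pool 5 (adjusted p = 0.0549, adjusted p = 0.0561 and adjusted p = 0.0571, edgeR). Impact, a regulator of the kinase GCN2, was 32.0 to 55.9 CPM in E wt and 11.5 to 33.2 CPM in ExE wt (adjusted p = 0.0579, edgeR).

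The Dlk1-Meg3, Peg3 and Mest-Copg2 domains gave no call in wt. In the first, the maternal non-coding RNAs were well detected in both tissues and the paternal protein-coding genes were not. Meg3 was 91.8 to 194.5 CPM in E wt and 111 to 179 CPM in ExE wt, and Rian was 44.9 to 58.5 CPM and 32.0 to 40.6 CPM, without overlap but not called (adjusted p = 0.240, edgeR). Dlk1, a Notch-like ligand gene, and Rtl1, a retrotransposon-derived gene, were at most 3.15 and 2.42 CPM over all 23 pools, and Mirg, a host of microRNAs, was 2.07 to 9.32 CPM in the wt pools. Peg3, a zinc finger gene, was 71.8 to 133 CPM in E wt and 66.2 to 195 CPM in ExE wt, while its neighbours Usp29 and Zim1 were at most 3.80 and 4.46 CPM in any pool. Mest was 121 to 148 CPM in E wt and 112 to 175 CPM in ExE wt. Its partner Copg2, which encodes a coatomer subunit, was 45.4 to 62.4 CPM and 72.6 to 113 CPM, without overlap but not called (log2 fold change 0.82 ± 0.30, adjusted p = 0.0610, edgeR). Zrsr1, Commd1, Peg13, Trappc9, Mcts2, Plagl1 and Nap1l5 were not called in any genotype either. Over the 47 tested members, the E and ExE wt pools did not overlap for 13 higher and 7 lower genes, against 14.3% and 13.8% of all genes.

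The E pools were not alike in the genes that were high in ExE. Elf5, a transcription factor gene that defines extra-embryonic ectoderm, was 18.7 and 14.0 CPM in E wt pools 1 and 4, 35.9 CPM in E het pool 4, and 11.8 and 20.9 CPM in E hom pools 1 and 3. In the other 7 E pools it was 0.106 to 5.38 CPM. Those 5 pools had the 5 highest values of H19 (133 to 377 CPM, against 19.4 to 58.0 CPM in the other 7), of Igf2 (19.7 to 79.3 against 1.32 to 9.26 CPM) and of Sfmbt2 (20.2 to 60.0 against 1.87 to 9.58 CPM). The same held for Phlda2 (21.1 to 84.9 against 7.29 to 13.8 CPM), Peg10 (10.8 to 26.0 against 0.678 to 4.06 CPM) and Gab1 (22.6 to 61.9 against 7.12 to 21.4 CPM). All 9 extra-embryonic ectoderm markers had counts in each E group, and their sum was 380.0 to 509 CPM in the 5 pools and 207 to 311 CPM in the 7. Visceral endoderm markers, from the layer that surrounds the epiblast, followed another order, with 1130 CPM in E wt pool 1, 527 in E hom pool 2, 397 in E hom pool 1 and 23.1 to 139 CPM in the other 9.

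Without those 5 pools the tissue differences of wt embryos were larger. This left E wt pools 2 and 5 in the contrast. Because the pools left out held the highest E values of these genes, larger differences follow from the choice and are not separate support. The log2 fold change was then 6.65 ± 0.50 for Igf2, 6.12 ± 0.42 for H19, 6.82 ± 0.61 for Sfmbt2, 5.35 ± 0.62 for Peg10, 4.36 ± 0.63 for Phlda2 and 4.35 ± 0.47 for Gab1. The 15 wt calls were the same with and without them, and Copg2 was added. In ExE the epiblast marker gene Pou5f1 was highest in wt pools 1 and 4 and hom pools 3 and 4, at 302, 199, 394 and 166 CPM, against 13.5 to 85.4 CPM in the other 7. The summed epiblast markers put hom pool 3 (2510 CPM), wt pool 4 (1770 CPM) and wt pool 1 (1650 CPM) first, followed by het pool 5 (1380 CPM) and hom pool 4 (1280 CPM). ExE wt pools 1 and 4 also had the highest Nnat values of ExE, and Ndn was highest in wt pool 1, hom pool 3 and wt pool 4. Without ExE wt pool 1 the number of members lower in ExE was 9 rather than 5, the additions being Asb4, Impact, Ndn and Usp29, and 18.6% of all genes were called in either direction. The part of cells of the other tissue in these differences was not tested further.

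**Figure D3:**
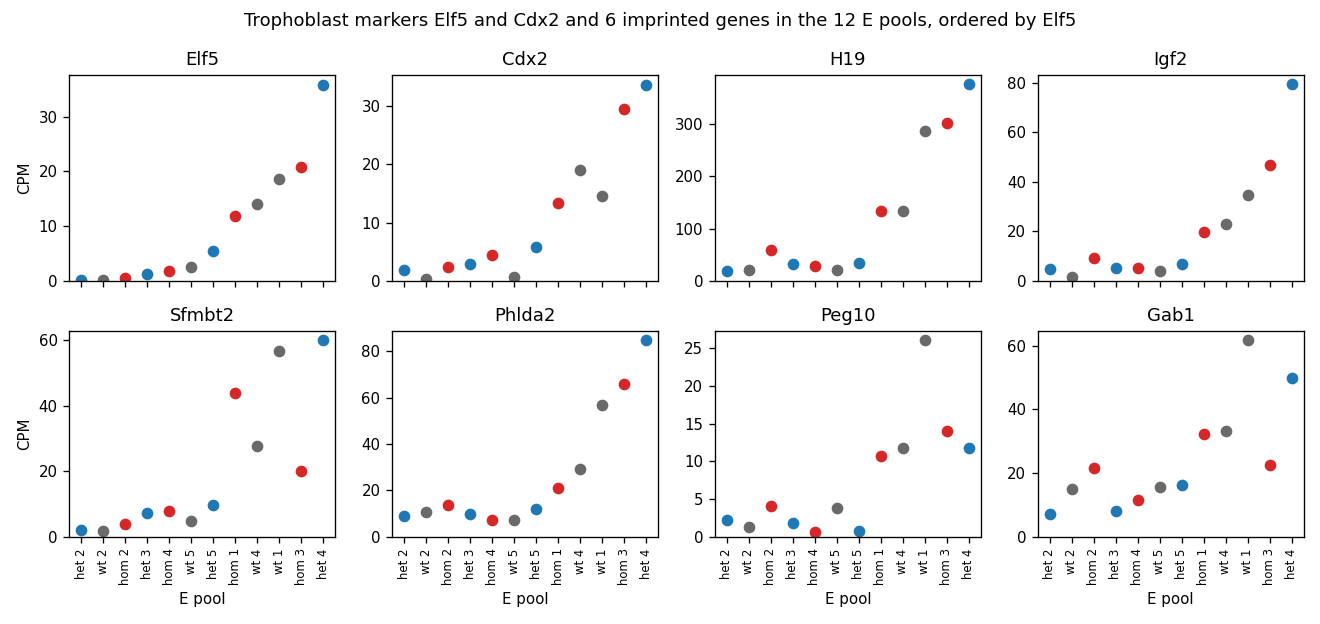
CPM of the extra-embryonic ectoderm markers Elf5 and Cdx2 and of 6 imprinted genes in the 12 E pools (grey wt, blue het, red hom), ordered by Elf5 from left to right. The 5 pools at the right, hom 1, wt 4, wt 1, hom 3 and het 4, hold the 5 highest values in all 8 panels.

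The second comparison asks whether the trap alters imprinted genes in the epiblast. In hom against wt, 0 of 43 tested members were called by edgeR, where 0.0161% of all 12405 genes were called, and limma-voom also called 0 members and 0.0161% of all genes. At an unadjusted p under 0.05 there were 3 members, all lower in hom (Nnat, Sgce and Impact, all paternal), against 4.19% of all genes. DESeq2 called 1 member, Nnat, and 0.137% of all genes. The median log2 fold change was -0.0855 over the members, -0.286 over the 22 paternal genes and 0.0142 over the 20 maternal genes, against 0.0078 over all genes.

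Nnat was the member with the smallest p. It was 36.4, 60.6, 48.9 and 38.0 CPM in E wt, 43.8, 44.0, 55.7 and 34.0 CPM in E het, and 15.1, 17.8, 24.3 and 21.0 CPM in E hom. Every hom pool lay below every wt and every het pool, and the wt and het pools overlapped. The log2 fold change of hom against wt was -1.23 ± 0.24 (adjusted p = 0.362 with edgeR and adjusted p = 0.00436 with DESeq2). Its value was -1.23 ± 0.24 with the extra-embryonic ectoderm or the visceral endoderm marker level as a covariate and -1.34 ± 0.31 without the 5 E pools high in Elf5. Blcap was 17.1 to 41.0 CPM in E hom, a log2 fold change of 0.29 ± 0.28 against wt. Of the 43 tested members, the hom and wt pools did not overlap for 1 higher and 2 lower genes, against 2.36% and 2.07% of all genes.

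Sgce, the other member without overlap below wt, was 3.55, 2.64, 2.17 and 6.21 CPM in E wt, 0.531, 1.73, 2.29 and 2.76 CPM in E het, and 0, 1.25, 0.345 and 0 CPM in E hom. The hom values lie near the counting floor (log2 fold change -3.07 ± 1.06, adjusted p = 0.961, edgeR). Peg10, which shares its promoter region with Sgce, was 0.678 to 14.0 CPM in E hom and 1.32 to 26.0 CPM in E wt. Impact was 55.5, 45.5, 32.0 and 55.9 CPM in E wt, 35.9, 20.3, 11.6 and 26.7 CPM in E het, and 24.4, 9.57, 9.15 and 42.2 CPM in E hom. Those groups overlapped in hom pool 4 (log2 fold change -1.14 ± 0.46, adjusted p = 0.961, edgeR). The value for Impact in E het against wt was similar (-0.99 ± 0.46, adjusted p = 0.982, edgeR).

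The members with higher values in hom were weaker. Peg12 was at most 0.739 CPM in E wt and 0.833 to 3.11 CPM in E hom, Mcts2 was 13.8 to 21.8 and 17.7 to 29.7 CPM, and Kcnq1ot1 was 27.1 to 97.6 and 32.1 to 131 CPM. None of these had an unadjusted p under 0.05 (adjusted p = 0.961 for each, edgeR). H19 (0.17 ± 1.02) and Igf2 (0.36 ± 1.04) had log2 fold changes close to 0 with wide errors, and the pools high in Elf5 were the high pools of both genes in each genotype. The part of other cells in these values was not tested.

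In E het against wt, 0 of 43 members were called by edgeR, DESeq2 or limma-voom, where edgeR and limma-voom called 0% of all genes and DESeq2 0.0322%. At an unadjusted p under 0.05 there was 1 member, Impact, against 2.4% of all genes. Nnat had a log2 fold change of -0.05 ± 0.23. The other members with the smallest p were Tssc4 (0.51 ± 0.34), Peg13 (1.32 ± 1.14) and Asb4 (0.60 ± 0.52) with higher values, and Usp29 (-1.88 ± 0.90) and Peg3 (-0.78 ± 0.39) with lower values. Visceral endoderm markers had lower values in the same contrast. Their sum was 1130, 77.1, 139 and 68.8 CPM in E wt pools 1, 2, 4 and 5, and 23.1 to 80.5 CPM in E het. The groups overlapped, and E wt pool 1 stood far above the rest. All 17 tested markers had a negative log2 fold change (median -3.56), to which that 1 pool contributes. Of those 17, 12 had an unadjusted p under 0.05, against 2.4% of all genes, and 0 were called by edgeR. Afp and Hnf4a were at 0 in E het. With that marker level as a covariate, the log2 fold change was -1.25 ± 0.58 for Impact, -1.81 ± 1.10 for Usp29 and -0.52 ± 0.50 for Peg3. Peg3 in E het pool 4 was 14.8 CPM, against 60.1 to 80.4 CPM in the other 3. That pool is also the highest E pool in Elf5. It was listed beforehand as having a steep dependence of counts on transcript length, as were E hom pool 3 and ExE hom pool 3. The slopes are not given here.

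The third comparison is the same contrast in ExE. In each tissue the hom and het contrasts share the wt pools, so their values are given side by side and not as separate support. In hom against wt, 0 of 44 tested members were called by edgeR or limma-voom, where both called 0% of all 12355 genes. DESeq2 called 1 member, Phlda2, and 0.13% of all genes. At an unadjusted p under 0.05 there were 6 members: Phlda2, Cdkn1c and Smoc1 with higher values in hom, and Copg2, Inpp5f and Grb10 with lower values. Of all genes, 7.57% passed that threshold. The median log2 fold change was -0.0796 over the members and -0.0228 over all genes.

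Phlda2 was 118, 224, 227 and 178 CPM in ExE wt, 480.5, 291, 583 and 257 CPM in ExE het, and 912, 982 and 161 CPM in ExE hom pools 1, 3 and 4. Hom pools 1 and 3 stood above every other ExE pool, hom pool 4 lay within the wt range, and every het pool lay above every wt pool. Hom pool 3 had the lowest library total (4912215 counts) and 275 CPM of decidua markers, and was listed as having a steep dependence of counts on transcript length. The part of these traits in its Phlda2 value was not tested. The log2 fold change of hom against wt was 1.85 ± 0.47 (adjusted p = 0.513 with edgeR and adjusted p = 0.0347 with DESeq2). Without hom pool 4 it was 2.31 ± 0.32 (adjusted p = 0.0334, edgeR), and leaving out any 1 pool gave 1.52 to 2.31. In het against wt it was 1.13 ± 0.43 (adjusted p = 0.9998, edgeR).

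Markers of the ectoplacental cone and giant cells, the trophoblast above the extra-embryonic ectoderm, also varied between the ExE pools. Their summed level was 205, 661, 405 and 420 CPM in ExE wt, 509, 455, 852 and 451 CPM in ExE het, and 843, 703 and 253 CPM in ExE hom. Hom pool 4, the low pool in Phlda2, was also the low hom pool in these markers. ExE wt pool 2, at 661 CPM of these markers, had 224 CPM of Phlda2, and hom pool 3, at 703 CPM, had 982 CPM. Prl2c2, Tpbpa and Ctsq, 3 of the 10 listed, were at 0 in all 3 groups. A covariate of the summed marker level was added after the values were seen. With it, the Phlda2 log2 fold change was 1.05 ± 0.30 in hom (adjusted p = 0.917, edgeR) and 0.55 ± 0.28 in het. The part of these cells in the Phlda2 values was not tested. One of those markers, Ascl2, is itself a maternally expressed gene of the Kcnq1 region, and it was 24.5 to 99.8 CPM in ExE wt and 28.3 to 282 CPM in ExE hom (log2 fold change 1.53 ± 0.61). In E, where Phlda2 is low, its log2 fold change in hom was near 0 and changed sign with the pools used.

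Cdkn1c, the neighbour of Phlda2 in the domain, was 98.2, 134, 151 and 129 CPM in ExE wt, 194, 155, 178 and 139 CPM in ExE het, and 330 (pool 1), 154 (pool 3) and 129 (pool 4) CPM in ExE hom. Pool 1 alone stood apart (log2 fold change 0.67 ± 0.29, adjusted p = 0.606, edgeR). Slc22a18, which lies between them, was 0.811 to 3.96 CPM in ExE wt, 3.51 to 7.01 CPM in het and 1.51 to 11.7 CPM in hom (log2 fold change 1.24 ± 0.69 in hom and 1.06 ± 0.65 in het). Kcnq1ot1 was 54.7 to 73.8, 24.3 to 103 and 57.8 to 182 CPM in wt, het and hom. The log2 fold changes of Phlda2, Cdkn1c and Slc22a18 were positive in hom, and none passed the edgeR test. The other tested maternal genes of the domain did not share 1 direction. As a percentage of the wt mean, ExE hom was 93.9 ± 25.6 (SD) for Nap1l4, next to Phlda2, and 112 ± 22.2 for Cd81. It was 136 ± 97.0 for Tssc4 and 159 ± 142 for Osbpl5.

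Smoc1 was 29.9 to 54.1 CPM in ExE wt, 54.2 to 63.9 CPM in het and 46.2 to 74.0 CPM in hom (log2 fold changes of 0.56 ± 0.25 in hom and 0.64 ± 0.23 in het). Among the lower values, Copg2 was 106, 113, 72.6 and 83.1 CPM in ExE wt and 63.8, 36.2 and 63.0 CPM in hom, without overlap (-0.79 ± 0.26, adjusted p = 0.513, edgeR). Inpp5f was 34.5, 28.1, 31.9 and 26.5 CPM in ExE wt, 16.3 to 29.7 CPM in het, and 15.4, 18.9 and 17.6 CPM in hom. The Inpp5f hom pools lay below every wt pool (-0.82 ± 0.28, adjusted p = 0.513, edgeR). Grb10 was 328 to 528 CPM in ExE wt and 153 to 349 CPM in hom, lowest in hom pool 3 (-0.71 ± 0.28, adjusted p = 0.574, edgeR). Of the 44 members, 1 was higher and 3 lower in hom without overlap, against 3.07% and 2.82% of all genes. ExE hom pool 3 also carried 275 CPM of maternal decidua markers, against 5.31 to 41.6 CPM in the other ExE pools, and the part of those cells in the hom values was not tested.

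In ExE het against wt, 0 of 44 members were called by edgeR or limma-voom, where both called 0% of all genes. DESeq2 called 1 member, Nnat, and 0.146% of all genes. At an unadjusted p under 0.05 there were 6 members, 2 higher (Phlda2, Smoc1) and 4 lower (Nnat, Impact, Meg3, Gnas), against 4.13% of all genes. Nnat was 14.4, 2.99, 14.1 and 5.81 CPM in ExE wt, 1.42, 1.58, 1.23 and 2.34 CPM in het, and 2.70, 10.2 and 4.03 CPM in hom. Every het pool lay below every wt pool, and hom overlapped wt (het against wt -2.47 ± 0.62, adjusted p = 0.891 with edgeR and adjusted p = 0.0480 with DESeq2). In ExE, Nnat was above 10 CPM only in wt pools 1 and 4 and hom pool 3, 3 of the 4 pools with the highest Pou5f1. With the epiblast marker level as a covariate the het value was -1.89 ± 0.54 (adjusted p = 0.646, edgeR). Meg3 was 111 to 179 CPM in ExE wt and 80.6 to 89.8 CPM in het, but 52.5 to 170.1 CPM in hom.

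**Figure D4:**
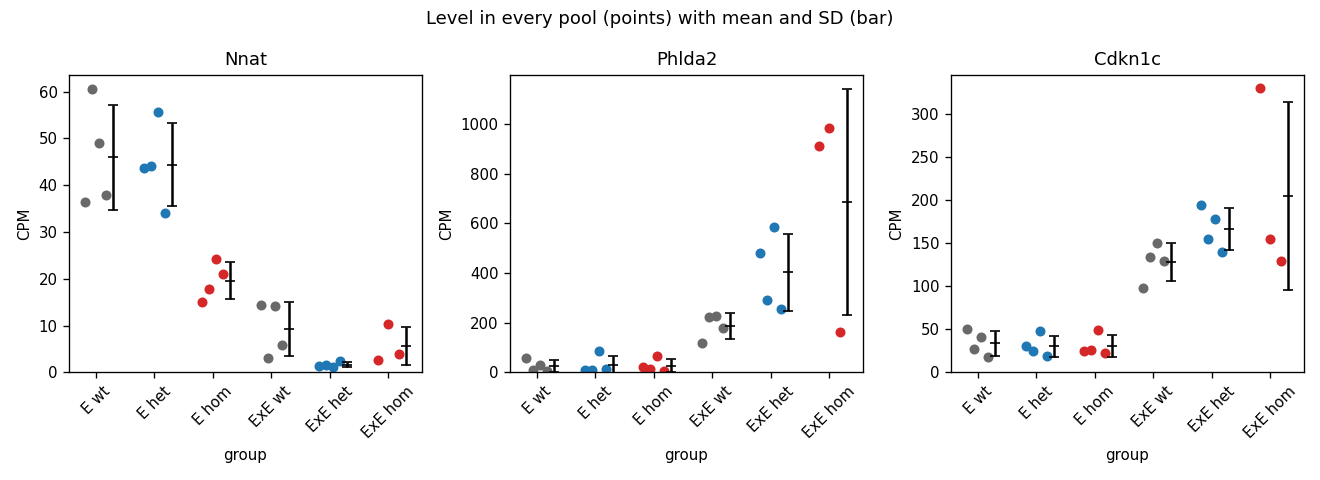
CPM of Nnat, Phlda2 and Cdkn1c in every pool (points; grey wt, blue het, red hom) with the mean and SD of each group (black bars) for the 6 groups. Nnat in E hom lies at 15.1 to 24.3 CPM, below all 8 other E pools; Phlda2 in ExE hom has 2 pools at 912 and 982 CPM and 1 at 161 CPM.

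Whether the hom effect differed between tissues was tested as an interaction, and 0 of 47 members were called by edgeR, DESeq2 or limma-voom, where edgeR and limma-voom called 0% of all 13595 genes and DESeq2 0.0221%. At an unadjusted p under 0.05 there were 2 members, Sgce and Dlk1, against 3.06% of all genes. Sgce, low in E hom, was in ExE 3.19 to 8.10 CPM in hom and 3.56 to 5.95 CPM in wt (difference of log2 fold changes 3.28 ± 1.08, adjusted p = 0.9999, edgeR). Dlk1 had 1 count in all ExE hom pools together, so no fold is given for it. The difference was -0.81 ± 0.44 for Copg2, 1.83 ± 1.08 for Phlda2 and 0.48 ± 0.61 for Nnat. A difference between tissues in the hom effect on Nnat or Phlda2 was therefore not shown.

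**Figure D5:**
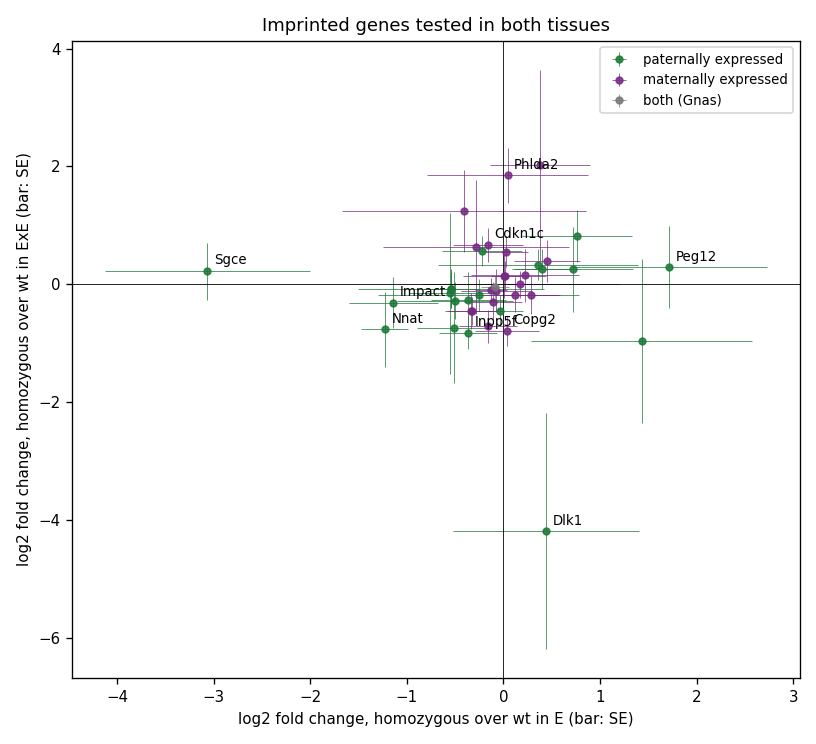
Log2 fold change of hom over wt in E (horizontal) and in ExE (vertical), with SE bars, for the 41 imprinted genes tested in both tissues, coloured by parental class. Most genes lie near the origin; Nnat and Sgce lie to the left, Phlda2 lies at the top, and Dlk1 at the bottom rests on 1 count in ExE hom.

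The genes that set, read or keep imprints were followed as a list of 19. In wt ExE against E, 2 were higher and 3 lower, where 9.28% and 7.98% of all genes were called. Higher were Dnmt3l (log2 fold change 2.74 ± 0.40), a cofactor of the de novo DNA methyltransferases, and Zfp42 (3.44 ± 0.66), which encodes the zinc finger protein REX1. Lower were Dnmt3a (-2.29 ± 0.38) and Dnmt3b (-1.58 ± 0.19), the de novo methyltransferases, and Tet1 (-0.85 ± 0.25). The maintenance methyltransferase gene Dnmt1 (-0.04 ± 0.18) and its cofactor gene Uhrf1 (0.17 ± 0.12) were not called, nor were Zfp57 (1.00 ± 0.46) and Trim28 (-0.36 ± 0.15), which protect imprints. No gene of the list was called by edgeR for hom against wt, where 0.0161% of all genes in E and 0% in ExE were called. At an unadjusted p under 0.05 there was 1 of 19 genes in E, Tet1 itself (-1.08 ± 0.28), against 4.19% of all genes. In ExE there were 3 of 18, against 7.57% of all genes: Tet1, Dnmt3b (-0.52 ± 0.19) and Setdb1 (-0.51 ± 0.22), which encodes a histone H3 lysine methyltransferase. All 3 had lower values in hom, and none was called. Tet1 in ExE had a log2 fold change of -1.79 ± 0.26 (adjusted p = 0.0704, edgeR).

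Another 26 imprinted genes outside the 51 served as a comparison, of which 15 were tested between tissues. In wt, 3 were higher in ExE (Ascl2, with a log2 fold change of 3.21 ± 0.87, Pon2, with 3.06 ± 0.40, and Klf14) and 2 lower (Nespas, with -2.21 ± 0.46, and Dcn). No fold is given for Klf14, which had 0 counts in every E wt pool, or for Dcn, which had 0 in every ExE wt pool and also serves as a decidua marker here. Called in either direction were thus 33.3% of these genes and 31.9% of the 47, against 17.3% of all genes. For hom against wt, edgeR called 0 of 14 in E and 0 of 13 in ExE, against 0.0161% and 0% of all genes. At an unadjusted p under 0.05 there were 0 and 1, against 4.19% and 7.57% of all genes.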

How the data were processed

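All 23 libraries share 1 table deposited by the authors, which holds unnormalised integer counts for each gene. Per the labels' protocols, poly(A) RNA (1 to 10 ng per pool) was amplified (SMARTer Ultra Low Input) and read as single 75-bp reads. Per the submitters' processing notes, cutadapt 1.7.1 and TopHat2 2.0.12 were used on build mm10 (GRCm38). The counting program, its annotation and its strand setting are not named in those sources, so antisense and overlapping partners cannot be separated. Of 23725 lines, 27 carry a date-like name in place of a gene symbol and 0 lack a name.

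Counts were tested with edgeR 4.0.16 (R 4.3.3; filterByExpr, TMM, quasi-likelihood, two-sided, Benjamini-Hochberg over all genes tested). Tissue contrasts and the interaction came from 1 fit of all 6 groups, and genotype contrasts from 1 fit per tissue. Levels are TMM-scaled CPM. Alternatives were DESeq2 1.42.0, limma-voom (limma 3.58.1), other size factors, no filter, only the groups compared, a replicate block, each pool left out, 3 libraries with a steep length dependence left out, and, added after the data were seen, marker levels as covariates and the 5 E pools high in Elf5 left out. On simulated counts for hom against wt in E, the edgeR procedure recovered 98% of genes changed 4-fold and 27% of those changed 2-fold (100 genes each, 12170 genes fitted). For ExE against E in wt it recovered 100% and 37% (12735 genes fitted). The simulation gave every gene the same spread between pools and changed only genes well above the counting floor. These rates therefore do not hold for members that vary more between pools or have low counts. Reads were amplified and carry no molecular identifiers, so limits from counts cover counting error only.

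The labels state that E and ExE pools of 1 number came from the same litters in 3 of 4 pools, which pairs the tissue comparison. The correlations of same-numbered E and ExE pools were -0.0269 to 0.0948 in wt, -0.0413 to 0.0553 in het and 0.15 to 0.46 in hom. Members, marker lists and tests were chosen with earlier results of these data known. Genes named with every pool's value were the called members of the wt tissue comparison (up to 8 in each direction by fold), the 3 members with higher and the 3 with lower values of smallest p in each genotype comparison, 3 for the interaction, and always Nnat and Phlda2. Positions and exon lengths are from GENCODE M21 (GRCm38). The 18 visceral endoderm, 9 extra-embryonic ectoderm, 8 epiblast, 10 ectoplacental cone and giant cell and 11 decidua markers were summed as CPM, and summed parietal endoderm markers were 231 to 516 CPM and blood markers 0 to 36.9 CPM over all pools.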

Additional observations from a re-analysis of the deposited data

Results flagged for a closer look

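In each group of 4 pools, a pool was singled out when its gap to the nearest other pool took up most of the group's range (Dixon's test at the 95% level). Of 147 combinations of gene and group, 15 were singled out. This number cannot be set against a chance rate, because the genes were chosen partly by their results and 1 pool can be singled out for many genes. A gene with counts in 1 pool only, as Airn in E het pool 4 and Asb4 in ExE wt pool 1, is singled out in any case.

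E het pool 4 accounted for 7 of them. In that pool H19 was 377 CPM against 19.4 to 33.3 CPM in the other het pools, Igf2 was 79.3 CPM against 4.78 to 6.56, Phlda2 was 84.9 CPM against 8.81 to 11.9, Sfmbt2 was 60.0 CPM against 2.02 to 9.58, and Peg10 was 11.8 CPM against 0.788 to 2.23. Mcts2, a retrogene that was not called between tissues in any genotype, was 34.1 CPM there against 16.4 to 17.7. Airn was also highest there, at 1.23 CPM, against 0 in the other 3. The same pool had the highest Elf5 of all E pools and was also listed as having a steep dependence of counts on transcript length. The part of either trait in these values was not tested.

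E hom pool 3, also listed as steep in length dependence, was apart for Cdkn1c (49.0 CPM against 22.0 to 25.7). It was also apart for Peg3 (50.6 CPM against 80.9 to 83.7). E wt pool 1 was apart for Smoc1 (29.6 CPM against 10.5 to 11.98). ExE wt pool 1 was apart for Igf2 (154 CPM against 280.0 to 303), Usp29 (1.68 CPM against 0 to 0.119) and Asb4 (2.52 CPM against 0). Grb10 was low in ExE het pool 1 (297 CPM against 435 to 457), and Airn was high in ExE het pool 5 (1.81 CPM against 0.329 to 0.558).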

How the results depend on the processing

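The number of imprinted genes lower in ExE of wt was 5, and it was 8 with DESeq2, 8 with limma-voom and 9 with the replicate block. Of all genes, 17.3% were called in either direction, and 21.9%, 22.8% and 25.8% under those settings. Leaving out 1 pool at a time gave 4 to 9 (9 without ExE wt pool 1, 4 without E wt pool 5, ExE wt pool 2 or ExE wt pool 5). In hom the same count was 5, and 3 to 5 without 1 pool, the 3 coming without ExE hom pool 1, where Nnat and Magel2 were lost. For hom against wt, where edgeR called 0, DESeq2 called 1 lower in E (Nnat) and 1 higher in ExE (Phlda2), and leaving out 1 pool gave 0 to 1 higher in ExE, the 1 coming without ExE hom pool 4. For het against wt in ExE, DESeq2 called 1 lower (Nnat). All other counts of called members stayed within 1.5 times of the reported ones under every setting run, the replicate block included. Same-numbered pools of different genotypes had correlations from -0.121 to 0.197, so their numbers were not taken as pairs, and the block called 0 members for every genotype contrast.

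Directions that changed were all uncalled, and the cause was not tested. The Phlda2 log2 fold change of hom against wt in E was -0.00472 with limma-voom, -0.188 with the replicate block, -0.879 without the 3 libraries with steep length dependence, and -0.876 to 0.759 without 1 pool. For het against wt in E it was -0.292 with limma-voom, -1.34 without those libraries, -0.0218 with the extra-embryonic ectoderm marker level as a covariate, and -1.34 to 0.845 without 1 pool. Nnat in het against wt in E ranged from -0.178 to 0.11 without 1 pool. Its difference between tissues was -0.108 without those libraries and ranged from -0.23 to 0.823 without 1 pool.

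H19 has no adjusted p from DESeq2 in the tissue comparison of any of the 3 genotypes, which is not counted as a lost call, so DESeq2 gives no answer for that gene. With 3 or 4 pools a group, many 2-fold differences can be missed. On simulated counts with the same spread for every gene, 27% were recovered for hom against wt in E and 37% between tissues in wt. Gnas and Cd81 were still called between tissues in wt at about that size. Genes below about 3 counts per library cannot be compared.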
